A study of Mus musculus with 2 samples.

Results

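The genes described here are 36 transcripts of the hypoxia response and of glycolysis, a list of HIF targets and glycolytic enzymes chosen by gene symbol from the 31053 genes of the count matrices. All 36 were listed, and all 36 had at least 20 unique molecular identifiers (UMIs, counts of distinct transcript molecules) in the monocyte/macrophage-like cells of the 2 libraries together. They were measured by droplet single-cell RNA sequencing of live CD45+ cells, that is, leukocytes, sorted from *Braf*-mutant mouse melanomas whose cells lacked *Ptgs*, the genes of the prostaglandin-making COX enzymes. Tumors grew for 4 days in C57BL/6 hosts 8 weeks old. Hosts of the control library received no depleting antibody, and hosts of the NK cell-depleted library received 200 µg of anti-NK1.1 and 30 µg of anti-asialo GM1 on days 0 and 2, which remove natural killer (NK) cells. The tumors of a group were pooled, so each group was 1 library, and no difference between them has a replicate check or a test. The genotype label of both samples names wild-type tumor cells, whereas the titles name a knockout, a conflict that both groups share. Parental melanoma cells had been added to both sorted samples.

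Oxygen acts on many of these genes through HIF, a transcription factor whose alpha subunit (*Hif1a*) is hydroxylated by the prolyl hydroxylases EGLN1 and EGLN3 and then degraded. When oxygen is low the subunit persists, pairs with ARNT and binds short DNA elements with the core letters ACGTG or GCGTG beside its targets. Those targets import glucose, run glycolysis to lactate, divert pyruvate from mitochondria, and remove mitochondria. In tumors, macrophages that lie far from vessels are known for high levels of these transcripts.

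Filtered cells (500 to 15000 UMIs, 200 to 4000 genes, at most 10% mitochondrial UMIs) numbered 5292 in the control library and 4506 in the NK cell-depleted library. They held 24810009 and 23245982 UMIs, and 5 barcodes occurred in both libraries. Levels are given as CPM, the UMIs of a gene per 1000000 UMIs of a group of cells, always with the control library first and the NK cell-depleted library second. Since fewer transcripts of a gene per cell and fewer cells that express it give the same CPM, these were not told apart. Of 21 clusters, 9 were monocyte/macrophage-like and formed a pool of 3026 and 2963 cells. These 9 clusters, and the Cdh1 Mgl2 and Slc7a2 Dcstamp clusters, were called states and named after marker genes. The latter pair stayed outside the pool because a marker of another cell type stood among their leading genes. The defining markers of melanoma cells, *Mlana* and *Sox10*, were at 0 in all filtered cells. In NK-like cells the depletion is visible, with 542 cells in the control library and 1 in the NK cell-depleted library, so NK-like levels exist for the control library only.

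Promoters are shown for 6 of these genes because the results turn on these genes, and the letters that HIF reads can be looked for in them. The windows reach from 250 bases before to 50 bases after a transcript start (RefSeq, GRCm38.p6), and 32 of the 36 genes have at least 1, including *Ero1l* under a newer symbol. For *Ldha* (2 windows) and *Eno1* (3 windows) 1 window is shown. It was chosen as the one with most ACGTG matches or, at a tie, with most matches of both motifs. Capitals mark ACGTG on either strand, where its reverse complement reads CACGT and overlapping matches share letters.
Slc2a1, chr4:119108495-119108794, plus strand: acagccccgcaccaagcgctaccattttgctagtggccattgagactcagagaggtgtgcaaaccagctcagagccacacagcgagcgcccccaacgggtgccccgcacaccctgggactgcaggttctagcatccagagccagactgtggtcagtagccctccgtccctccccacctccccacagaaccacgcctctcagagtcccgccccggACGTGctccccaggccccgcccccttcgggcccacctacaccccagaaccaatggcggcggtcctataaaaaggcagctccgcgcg
Bnip3, chr7:138909457-138909756, minus strand: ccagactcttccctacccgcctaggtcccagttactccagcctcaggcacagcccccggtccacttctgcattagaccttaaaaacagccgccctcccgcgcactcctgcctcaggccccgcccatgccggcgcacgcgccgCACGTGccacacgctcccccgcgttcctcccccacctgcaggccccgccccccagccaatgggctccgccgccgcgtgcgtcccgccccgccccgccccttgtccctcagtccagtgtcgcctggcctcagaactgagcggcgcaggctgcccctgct
Pgk1, chrX:106186850-106187149, plus strand: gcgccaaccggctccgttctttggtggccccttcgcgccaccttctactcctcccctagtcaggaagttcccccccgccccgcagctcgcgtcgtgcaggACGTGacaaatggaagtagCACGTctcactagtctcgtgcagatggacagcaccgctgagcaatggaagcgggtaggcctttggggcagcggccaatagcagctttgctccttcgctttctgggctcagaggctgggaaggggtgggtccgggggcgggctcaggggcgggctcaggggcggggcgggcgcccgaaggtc
Ldha, chr7:46845554-46845853, plus strand: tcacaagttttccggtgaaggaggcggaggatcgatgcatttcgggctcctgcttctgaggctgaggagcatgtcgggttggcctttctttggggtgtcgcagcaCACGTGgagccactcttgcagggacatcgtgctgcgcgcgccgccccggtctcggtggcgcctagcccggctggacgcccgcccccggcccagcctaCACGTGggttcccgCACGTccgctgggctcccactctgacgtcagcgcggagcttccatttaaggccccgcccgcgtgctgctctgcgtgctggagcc
Eno1, chr4:150236458-150236757, plus strand: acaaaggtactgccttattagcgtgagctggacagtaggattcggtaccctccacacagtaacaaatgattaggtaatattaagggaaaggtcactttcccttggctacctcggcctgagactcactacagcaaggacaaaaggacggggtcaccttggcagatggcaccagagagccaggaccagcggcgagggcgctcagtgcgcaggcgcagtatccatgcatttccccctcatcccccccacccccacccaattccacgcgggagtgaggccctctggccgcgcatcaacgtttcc
Fam162a, chr16:36071512-36071811, minus strand: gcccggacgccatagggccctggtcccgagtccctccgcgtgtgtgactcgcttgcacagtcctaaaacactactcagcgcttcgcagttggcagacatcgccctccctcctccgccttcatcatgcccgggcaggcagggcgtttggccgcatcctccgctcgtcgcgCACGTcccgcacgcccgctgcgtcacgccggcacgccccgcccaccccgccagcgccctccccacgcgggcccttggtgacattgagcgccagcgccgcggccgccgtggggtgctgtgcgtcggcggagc
*Ldha* held 2 matches on the written strand and 3 on the other, *Pgk1* and *Bnip3* held 1 on each, *Slc2a1* and *Fam162a* 1 in all, and *Eno1* 0. The *Eno1* window held 2 matches of GCGTG instead, and *Fam162a* 5. Over all members, ACGTG stood in 64.3% of 42 windows against 19.6% of all 32851 windows. GCGTG stood in 59.5% against 32.4%. The member windows were also richer in G and C, with a median of 65.2% against 52.7%, and the part of this in the motif counts was not tested.

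Within macrophage-like cells the genes formed a steep and shared gradient. They were highest in the Gpnmb Mmp13 and Slc7a2 Dcstamp states, high in the smaller Retnla Lyz1 (Aldh1a2) state and in the Pf4 Itga9 state, and low in the Lyve1 Folr2, Ace Adgre4 and Ly6c2 Vcan (Gm9733) states. Clusters had been built without the 36 genes and without the wider HIF and glycolysis lists, so these transcripts did not themselves define the states. Summed over the 36 genes, the Gpnmb Mmp13 state held 22469 and 26485 CPM. In the Lyve1 Folr2 state the sums were 3588 and 3248 CPM. Of 36 genes measured in the Gpnmb Mmp13 and Lyve1 Folr2 states, 34 were at least 2-fold higher in the former in the control library, where 11.5% of all genes were, and 33 in the NK cell-depleted library, where 12.5% were. For the Slc7a2 Dcstamp state the counts were 34 and 34, against 10% and 11.4% of all genes. For the Pf4 Itga9 state they were 30 and 32, against 8.29% and 10%.

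Single cells also separated high from low states, as the plot of each cell's share of UMIs shows, but the order among the high states differed. The median cell of the Retnla Lyz1 (Aldh1a2) state, at 2.36% and 2.39%, lay beside that of the Slc7a2 Dcstamp state, at 2.36% and 2.61%. The median cell of the Gpnmb Mmp13 state gave 2.17% of its UMIs to these genes in the control library and 2.54% in the NK cell-depleted library. The median cell of the Lyve1 Folr2 state gave 0.276% and 0.273%. The interquartile ranges of these 2 states did not overlap in either library, since the upper quartile was 0.369% and 0.353% in the Lyve1 Folr2 state and the lower quartile 1.64% and 1.99% in the Gpnmb Mmp13 state. The mitochondrial share of UMIs moved the other way at this end, with medians of 0.618% and 1.08% in the Gpnmb Mmp13 state and 2.82% and 3.47% in the Lyve1 Folr2 state. The Slc7a2 Dcstamp state, equally high in these genes, had 2.32% and 3.6%. The part of RNA quality or depth in the gradient was not tested.

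**Figure D1:**
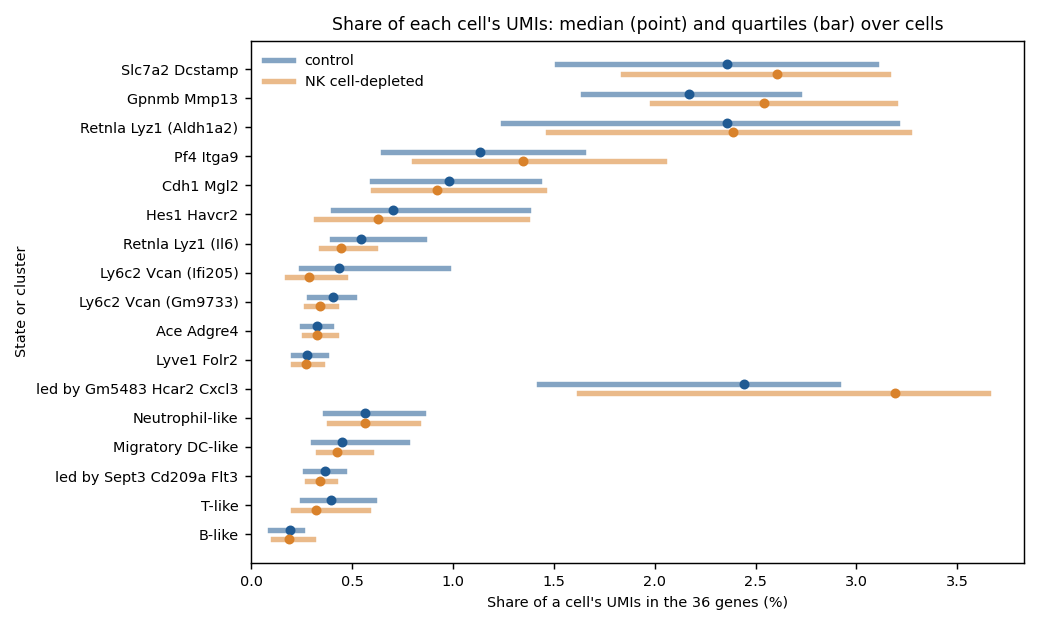
Share of each cell's UMIs that fell on the 36 genes (x axis, %), for macrophage states and other clusters (y axis) in the control (blue) and NK cell-depleted (orange) libraries. Points are medians and bars run from the lower to the upper quartile over cells; the Slc7a2 Dcstamp, Gpnmb Mmp13 and Retnla Lyz1 (Aldh1a2) states and the cluster led by *Gm5483*, *Hcar2* and *Cxcl3* lie above 2% in both libraries, while the Lyve1 Folr2 state lies under 0.3%.

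Among the oxygen-sensing members, the hydroxylase genes *Egln1* and *Egln3* followed the gradient and *Hif1a* did not. *Egln3*, a hydroxylase gene that HIF itself turns on, stood at 368 and 399.9 CPM in the Gpnmb Mmp13 state and at 7.74 and 3.13 CPM in the Lyve1 Folr2 state. Counting intervals (exact Poisson, 95%) were 346 to 392 and 368 to 434 CPM against 4.91 to 11.6 and 1.82 to 5.01 CPM. It was the one member that exceeded every other state by at least 2-fold in both libraries, the next being the Slc7a2 Dcstamp state in the control library, at 176 CPM, and the Pf4 Itga9 state in the NK cell-depleted library, at 189 CPM. *Egln1*, the main hydroxylase for HIF in most cells, ran from 39.3 and 39.8 CPM in the Ace Adgre4 state to 308 and 368 CPM in the Slc7a2 Dcstamp state. *Hif1a* was the flattest of the 3, from 129 and 142 CPM in the Lyve1 Folr2 state to 341 and 361 CPM in the Hes1 Havcr2 state, and its 159 and 189 CPM in the Gpnmb Mmp13 state lay between them. HIF-alpha is controlled mostly through protein stability, which these counts do not measure.

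Glucose enters through SLC2A1 or SLC2A3, and lactate leaves through SLC16A3. *Slc2a1* stood at 487 and 839 CPM in the Gpnmb Mmp13 state, at 454 and 586 CPM in the Slc7a2 Dcstamp state and at 14.5 and 13.4 CPM in the Lyve1 Folr2 state. *Slc2a3* behaved differently, since it was near its detection limit in macrophage states (0 to 24.5 CPM) and reached 299.7 and 411 CPM in neutrophil-like cells. *Slc16a3* was also highest in neutrophil-like cells, at 1390.0 and 1706 CPM, and among states was highest in the Slc7a2 Dcstamp state, at 705 and 774 CPM. Neutrophil-like cells were thus high in a glucose importer and in the lactate exporter while their *Gapdh*, at 519 and 379 CPM, lay below that of every macrophage state except Ace Adgre4 in both libraries.

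The first enzymes of glycolysis, from hexokinase to triose phosphate isomerase, mostly followed the gradient. *Aldoa*, the aldolase of most tissues, rose from 182 and 153 CPM in the Lyve1 Folr2 state to 1409 and 1728 CPM in the Gpnmb Mmp13 state. *Tpi1* went from 80.5 and 81.8 CPM in the Ace Adgre4 state to 1088 and 1156 CPM in the Retnla Lyz1 (Aldh1a2) state. *Gpi1*, the glucose phosphate isomerase gene, reached 1529 and 1703 CPM in the Slc7a2 Dcstamp state, and was at least 2-fold above every non-macrophage class and above the pool in both libraries. *Aldoc*, a second aldolase, was the one member highest in the Cdh1 Mgl2 state, at 78.4 and 78.3 CPM against 1.35 and 4.24 CPM in the Lyve1 Folr2 state. *Pfkp*, the platelet-type phosphofructokinase, was highest among states in Slc7a2 Dcstamp, at 368 and 425 CPM, and lay at 217 and 298 CPM in the Gpnmb Mmp13 state and 74.4 and 71.7 CPM in the Lyve1 Folr2 state. Its level was also high in the unnamed cluster led by *Sept3*, *Cd209a* and *Flt3*, at 376 and 399 CPM. *Pfkfb3*, which makes the activator of phosphofructokinase, was highest in migratory DC-like cells, at 249 and 343 CPM.

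Genes of the later steps of the pathway also separated low from high states, though the state with the highest level differed between genes. *Pgk1*, the first ATP-producing enzyme, stood at 223 and 211 CPM in the Lyve1 Folr2 state, 1208 and 1719.8 CPM in the Pf4 Itga9 state, 2349.8 and 2836 CPM in the Gpnmb Mmp13 state and 2479.8 and 3564 CPM in the Retnla Lyz1 (Aldh1a2) state. *Ldha*, which turns pyruvate to lactate, ran from 149 and 176 CPM in the Ace Adgre4 state to 1805 and 2035 CPM in the Retnla Lyz1 (Aldh1a2) state. *Pkm*, the pyruvate kinase gene, ran from 329 and 293 to 1715 and 1757 CPM between the Lyve1 Folr2 and Gpnmb Mmp13 states. The study used *Gapdh* to normalise quantitative PCR of whole tumors, in which its level was not measured here. Across these sorted leukocytes *Gapdh* was not level. It stood at 459 and 352 CPM in the Ace Adgre4 state, 681 and 571 CPM in the Lyve1 Folr2 state and 3402 and 3192 CPM in the Slc7a2 Dcstamp state, and at 180.4 and 215 CPM in B-like cells.

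Transcripts of mitochondrial removal and of other HIF programs had steep slopes as well. *Bnip3*, a receptor that marks mitochondria for autophagy, stood at 17.7 and 21.3 CPM in the Ace Adgre4 state and 875 and 1172 CPM in the Gpnmb Mmp13 state. *Ero1l*, an oxidase for disulfide bonds in the endoplasmic reticulum, stood at 31.4 and 39.8 and 1016 and 1491 CPM in the same states. *Ndrg1*, a stress-response gene, stood at 38 and 38.3 CPM in the Lyve1 Folr2 state and 806 and 1224 CPM in the Gpnmb Mmp13 state. *P4ha2*, a collagen prolyl hydroxylase subunit, was highest in the Slc7a2 Dcstamp state, at 122 and 127 CPM. The Gpnmb Mmp13 state followed at 91.6 and 83.1 CPM, and the Lyve1 Folr2 state had 4.04 and 3.68 CPM. As a class, Slc7a2 Dcstamp was at least 2-fold above the pool, which holds the Gpnmb Mmp13 state, and above every other class. *Adm*, which encodes the vasodilator adrenomedullin, was detected at low level, at 24.3 and 29.3 CPM in the Gpnmb Mmp13 state and from 80 and 60 UMIs in the whole pool. *Car9*, often the strongest HIF target in carcinoma cells, stayed between 0 and 8.54 CPM in the states and did not share the gradient at this depth.

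**Figure D2:**
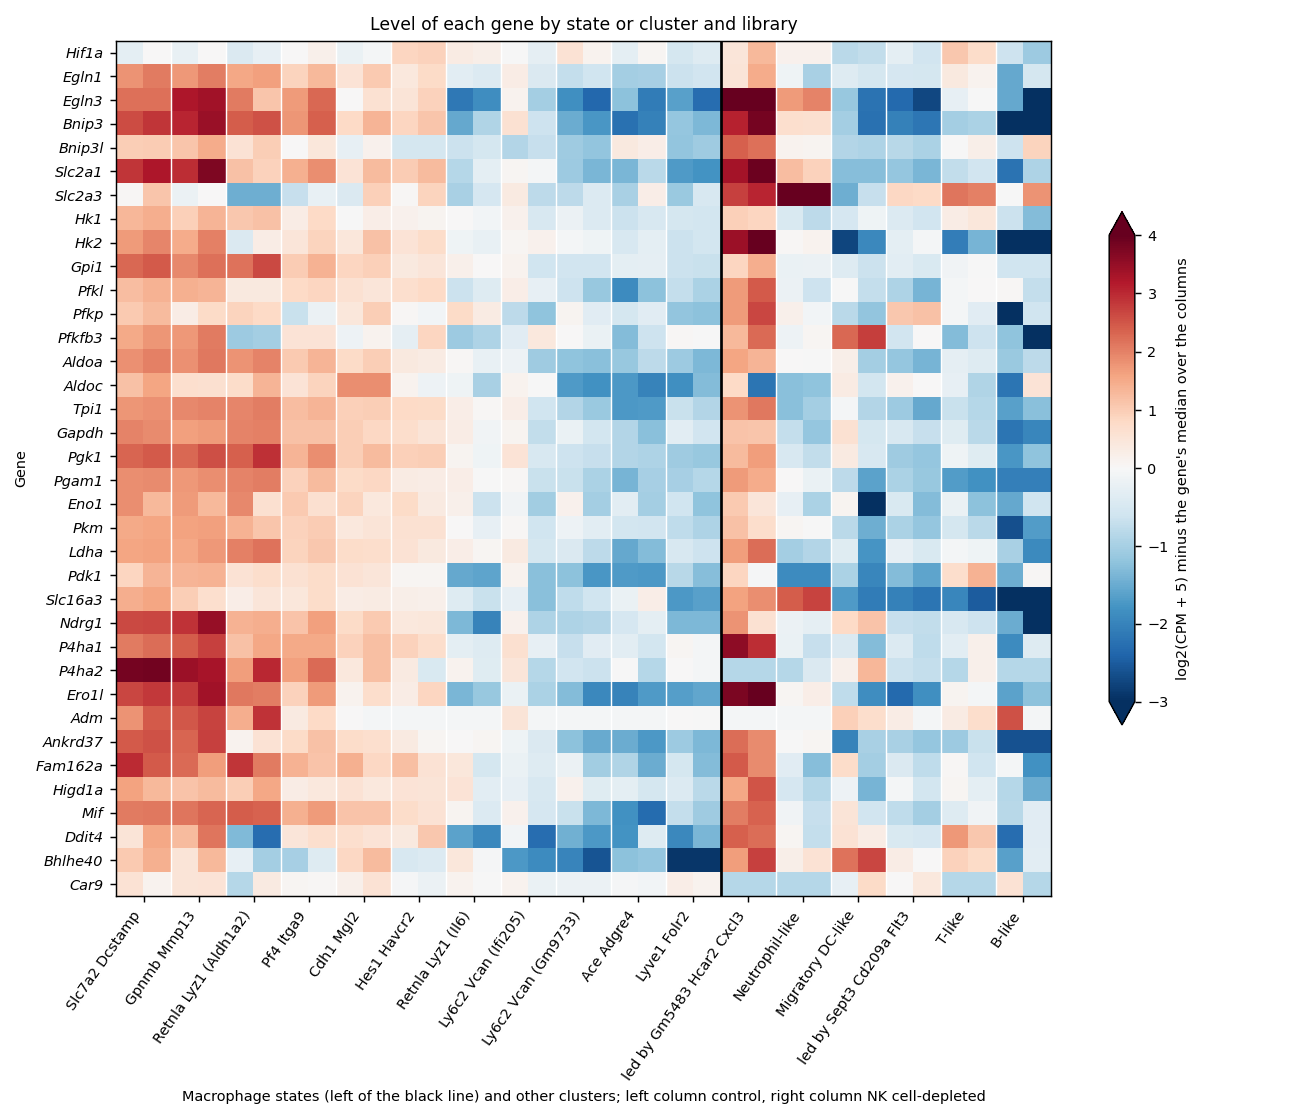
Level of each of the 36 genes (rows) in macrophage states (left of the black line) and other clusters (right), as log2(CPM + 5) minus the gene's median over the columns, with the control library in the left and the NK cell-depleted library in the right column of each pair. Red is above and blue below the gene's own median, and values past the ends of the scale take the end color; *Bnip3*, *Slc2a1*, *Ero1l* and *Egln3* are red in the Gpnmb Mmp13 and Slc7a2 Dcstamp states and blue in the Lyve1 Folr2 state in both libraries, whereas *Slc2a3* and *Slc16a3* peak in neutrophil-like cells.

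Outside macrophages, a small unnamed cluster was about as high in these genes as the highest macrophage states. It held 46 control and 30 NK cell-depleted cells with medians of 1152.5 and 1190.5 UMIs and was led by *Gm5483*, *Hcar2* and *Cxcl3*. The 36 genes summed to 23569 and 24846 CPM in the Slc7a2 Dcstamp state and to 23124 and 28778 CPM in this cluster. Classes here are the pool and the clusters outside it. *Hk2*, the inducible hexokinase, stood at 1494 and 2389 CPM there, against 449 and 542 CPM in the Slc7a2 Dcstamp cells, the next highest class. *Ero1l* reached 1963 and 2823 CPM, *Egln3* 643 and 1059 CPM and *Bnip3l* 938 and 814 CPM. These 4 genes were at least 2-fold above every other class in both libraries. In both libraries 12 of the 36 had their highest class level in this cluster, and 12 in the Slc7a2 Dcstamp class. The share of all genes was not counted for these numbers. Its summed neutrophil markers stood at 14628 and 20036 CPM, while neutrophil-like cells held 50255 and 49706 CPM and the pool 173 and 179 CPM. Its summed monocyte/macrophage markers were 3109.8 and 2090.5 CPM, close to those of neutrophil-like cells and far below the pool's 22829 and 19714 CPM. The cluster held 57560 and 36834 UMIs in all, so that *Hk2* rests on 86 and 88 UMIs.

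Lymphoid and dendritic cells carried selected members rather than the whole set. *Hif1a* was higher in T-like cells, at 399.7 and 313 CPM, than in the pool, at 194 and 196 CPM. *Bhlhe40*, a transcriptional repressor that HIF and activation signals induce, reached 901 and 1292 CPM in migratory DC-like cells and 697 CPM in the control library's NK-like cells, against 128 and 115 CPM in the pool. *Ddit4*, an inhibitor of mTOR signaling, stood at 76.1 and 46.5 CPM in T-like cells and at 22.9 and 20.7 CPM in the pool. B-like cells were low in the whole set, with sums of 2139 and 2804 CPM, the lowest of the named classes.

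Paralogs of 1 enzyme divided between cell types. *Slc2a3* made up 2.58% (exact binomial 95% interval 2 to 3.26%) and 4.99% (4.16 to 5.94%) of the UMIs of both glucose transporters in the pool. Its share was 67.4% and 78% among neutrophil-like cells, and T-like cells gave 62.5% and 57.1%. *Hk2* made up 78.8% and 79.1% of the hexokinase pair in the pool, 34.6% and 44.3% in T-like cells, and 18.9% in control NK-like cells. The share of *Pfkp* in its pair with *Pfkl* was 94% and 96.2% in the unnamed cluster led by *Sept3*, *Cd209a* and *Flt3*, against 66.3% and 73.8% in the pool. In that cluster *Aldoc* made up 10.5% and 11% of the aldolase pair, against 2.78% and 2.55% in the pool.

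The pairs that sense or respond to oxygen split along the macrophage gradient. *Egln3* made up 55.7% and 52.6% of its pair with *Egln1* in the Gpnmb Mmp13 state and 12.8% and 5.41% in the Lyve1 Folr2 state. *Bnip3l* made up 30.5% and 29.7% of its pair with *Bnip3* in the former and 63.1% and 68.6% in the latter. *P4ha2* made up 26.5% and 24.8% of its pair with *P4ha1* in the Slc7a2 Dcstamp state, 17.4% and 13.5% in the Gpnmb Mmp13 state, and 4.76% and 4.8% in the Lyve1 Folr2 state.

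**Figure D3:**
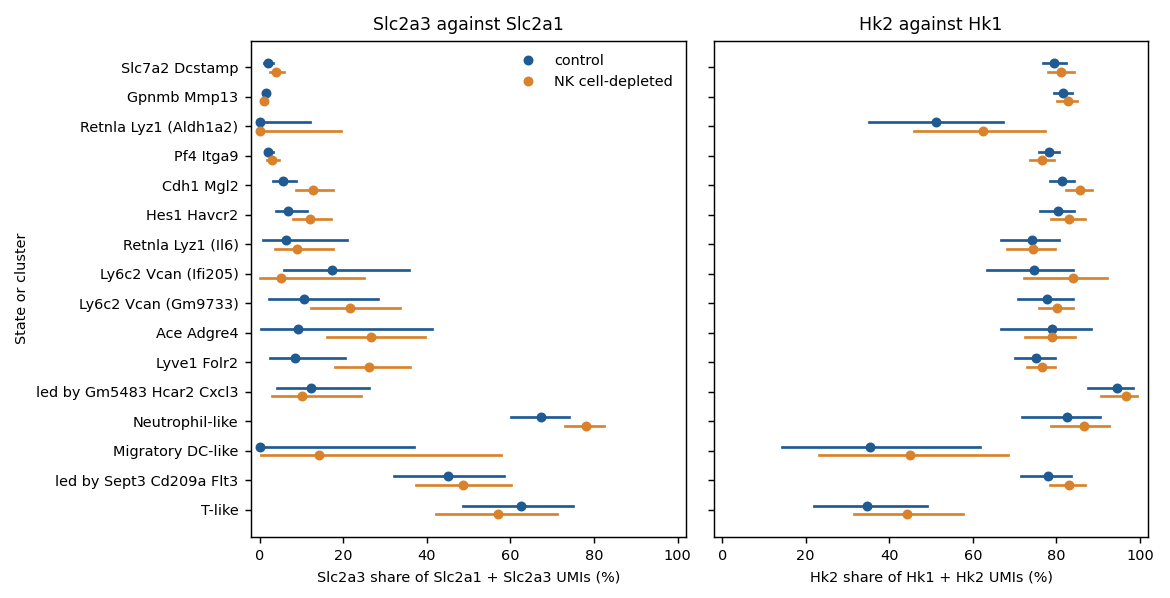
Share of *Slc2a3* in the UMIs of *Slc2a1* and *Slc2a3* (left panel, %) and of *Hk2* in those of *Hk1* and *Hk2* (right panel, %) by state or cluster, in the control (blue) and NK cell-depleted (orange) libraries; lines are exact binomial 95% intervals, which cover counting error only. *Slc2a3* holds over 60% in neutrophil-like cells and under 5% in the Gpnmb Mmp13 state in both libraries.

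The study asked how NK cells shape the leukocytes of these tumors, so each gene was next compared between the libraries. In the pool, where the log2 ratio of control over NK cell-depleted had a median of 0.42 over the 36 genes and -0.004 over all genes, 34 of 36 genes were higher in the control library, where 49.4% of all genes were. Past 1.5-fold, the threshold used in place of a test, 9 were higher, where 8.62% of 11582 genes were, and 1 was lower, where 4% were. The 9 were *Fam162a*, *Eno1*, *P4ha2*, *Pdk1*, *Egln3*, *Mif*, *Aldoc*, *Tpi1* and *Pfkl*, and the 1 lower gene was *Slc2a3*. With the Cdh1 Mgl2 and Slc7a2 Dcstamp states added to the pool, an alternative chosen after seeing the data, 3 of the 9 stayed past the threshold, namely *Fam162a*, *Eno1* and *Aldoc*.

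*Eno1*, the enolase of most tissues, stood at 246 and 119 CPM, 2.07-fold higher in the control library (exact conditional 95% interval 1.96 to 2.18). *Fam162a*, a HIF-induced mitochondrial gene, stood at 156 and 68.5 CPM, 2.27-fold higher (2.12 to 2.44). These 2 genes led the list, and *P4ha2* came next. *P4ha2* stood at 26.4 and 15.5 CPM (1.7-fold, 1.46 to 2), and *Pdk1*, which shuts pyruvate out of the mitochondrial cycle, at 72.8 and 45.4 CPM (1.6-fold, 1.46 to 1.76). *Egln3* stood at 118 and 73.5 CPM (1.6-fold, 1.49 to 1.72), and *Mif*, a cytokine gene, at 678 and 443 CPM (1.53-fold, 1.49 to 1.58). *Aldoc*, at 19.5 and 12.9 CPM, *Tpi1*, at 544 and 361 CPM, and *Pfkl*, at 75.9 and 50.6 CPM, lay just past the threshold with 1.51-, 1.51- and 1.5-fold. With every cell thinned to 2000 UMIs, *Aldoc* at 0.24 log2 and *Pfkl* at 0.48 fell short of it, and with stricter limits on cells so did *Tpi1* at 0.57. *Gapdh* lay just short of it, at 1563 and 1049 CPM and 1.49-fold (1.46 to 1.52). *Slc2a3*, from 67 and 121 UMIs, stood at 4.33 and 7.18 CPM and was 1.66-fold higher in the NK cell-depleted library, but no longer past 1.5-fold once an estimate of free RNA was subtracted. *Hif1a* itself had near-equal levels, at 194 and 196 CPM.

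The pools differed in which states they held, and the states differed steeply in these genes. The Pf4 Itga9 state gave 32.9% of the pool's UMIs in the control library and 15.9% in the NK cell-depleted library. The Gpnmb Mmp13 state gave 17.9% and 8.71%, with 727 and 375 cells. The low states moved the other way, with 19.2% and 32.2% for Lyve1 Folr2, 6.46% and 15.4% for Ly6c2 Vcan (Gm9733), and 3.29% and 8.34% for Ace Adgre4.

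When only these shares were allowed to differ, with each state's levels set to the mean of both libraries, the 36 genes had a median log2 ratio of 0.57, against 0.00 over all genes, and 36 of 36 lay above 0, where 50.7% of all genes did. This composition part was largest for *Egln3* (0.94), *Adm* (0.91), *P4ha2* (0.87) and *Bnip3* (0.86). It was smallest for *Hif1a* (0.04) and *Car9* (0.09). When instead each of the 9 states entered both libraries at equal weight, the median was -0.11, against -0.03 over all genes. At equal weights 2 genes were past 1.5-fold higher, where 4.78% of all genes were, namely *Eno1* (1.67-fold) and *Fam162a* (1.58-fold). Another 2 were past it lower, where 3.48% were, namely *Slc2a3* (-0.60 log2) and *Adm* (-0.73 log2), both of few UMIs. The *Eno1* value was 0.57 log2, short of the threshold, with shallow clusters left out, and that of *Fam162a* was 0.56 without upper limits on UMIs and genes. The other 32 genes lay within 1.5-fold, from -0.50 log2 for *Ddit4* and -0.49 for *Slc2a1* to 0.11 for *Gapdh*.

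**Figure D4:**
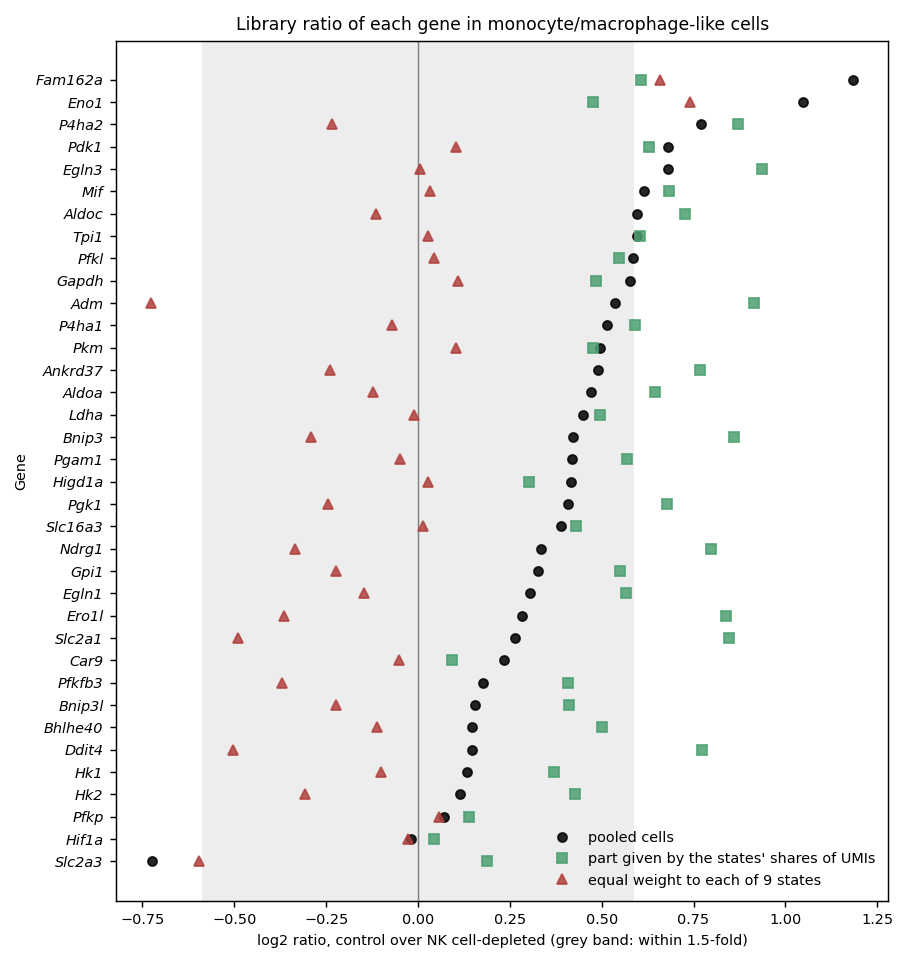
Log2 ratio of control over NK cell-depleted (x axis) for each of the 36 genes (y axis, sorted by the pooled value) in monocyte/macrophage-like cells: pooled cells (black circles), the part given by the states' shares of UMIs (green squares) and equal weight to each of 9 states (red triangles); the grey band spans 1.5-fold. The green squares lie above 0 for all 36 genes, while the red triangles of most genes lie near or below 0 and only those of *Eno1* and *Fam162a* pass the band on the right.

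Inside single states the sign of the difference depended on the state. In the Pf4 Itga9 state the median log2 ratio was -0.38, with 3 of 36 genes above 0, against -0.06 and 42.8% above 0 over all genes. No member was past 1.5-fold higher (5.76% of all genes) and 7 were past it lower (6.27%). They were *Egln3*, *Bnip3*, *Slc2a3*, *P4ha2*, *Ero1l*, *Adm* and *Bhlhe40*. *Ero1l* stood at 271 and 471 CPM, 1.74-fold higher in the NK cell-depleted library, and *Bnip3* at 355 and 553 CPM, 1.56-fold higher. *Egln3* stood at 125 and 189 CPM and *Bhlhe40* at 96.8 and 151 CPM.

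In the Gpnmb Mmp13 state the median was -0.27 with 6 of 36 genes above 0, against 0.04 and 53.8% above 0 over all genes. One member was past 1.5-fold higher (12.9% of all genes) and 4 were past it lower (7.17%). *Slc2a1* stood at 487 and 839 CPM, 1.72-fold higher in the NK cell-depleted library, *Bhlhe40* at 285 and 489 CPM, 1.72-fold, *Ndrg1* at 806 and 1224 CPM, 1.52-fold, and *Ddit4* from 146 and 150 UMIs, 1.93-fold. The 1 higher gene was *Fam162a*. Mitochondrial shares in this state had medians of 0.618% and 1.08%, its monocyte/macrophage markers summed to 16728 and 10870.0 CPM, and the part of either in these ratios was not tested.

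The states outside the pool also had medians below 0. In the Cdh1 Mgl2 state the median was -0.21, with 1 member past 1.5-fold higher (8.18% of all genes) and 7 lower (9.13%), among them *Slc2a1* at 87.6 and 147 CPM and *Hk2* at 186 and 309 CPM. In the Slc7a2 Dcstamp state the median was -0.16, with 0 members higher (9.03%) and 3 lower (10.4%). NK cell markers summed to 428 and 15.3 CPM in the latter state, and their part was not tested.

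Both states named Ly6c2 Vcan, after genes of classical monocytes, went the other way. Those marker genes had a mean log2 ratio over the other macrophage states of 1.76 in the Gm9733 state and 0.67 in the Ifi205 state. In the Hes1 Havcr2 state it was 1.23, while the median over the 36 genes was 0.01 there. The markers were thus not particular to the 2 states of that name. In the Ly6c2 Vcan (Gm9733) state the median log2 ratio was 0.31, with 24 of 29 measured genes above 0, against -0.08 and 42.4% above 0 over all genes. Past 1.5-fold, 7 were higher (7.09% of all genes) and 0 lower (11.2%), and *Mif* was one of them at 193 and 119 CPM. In the Ly6c2 Vcan (Ifi205) state the median was 0.73, with 26 of 29 above 0, against -0.06 and 45.4% above 0 over all genes. There 19 were past 1.5-fold higher (10.3%) and 1 lower (13.8%). *Gapdh* stood at 910.0 and 509.6 CPM, *Pgk1* at 685 and 337 CPM and *Ldha* at 567 and 308 CPM. This cluster was shallow, with medians of 1606 and 1645 UMIs. Its median cell held 0.434% and 0.288% of UMIs in these genes, and the upper quartile was 0.973% and 0.465%, so the gap was wider at the upper quartile.

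The other states had medians nearer 0. In the Lyve1 Folr2 state the median was 0.11 (0.34 with free RNA subtracted), with 3 members higher (7.31% of all genes) and 3 lower (5.5%). In the Hes1 Havcr2 state it was 0.01, with 1 higher (7.14%) and 3 lower (8.57%). In the Ace Adgre4 state it was -0.15, with 2 higher (6.65%) and 4 lower (12%). The Retnla Lyz1 (Il6) state had 0.20, with 5 higher (9.25%) and 2 lower (9.48%), and the Retnla Lyz1 (Aldh1a2) state -0.09, with 4 higher (13.7%) and 1 lower (14.6%). *Slc2a3* was past 1.5-fold lower in the control library in 5 of the 6 states where it had 20 UMIs, and *Ddit4* in 5 of 7, for instance at 52.9 and 102 CPM in the Gpnmb Mmp13 state and 30.1 and 65.4 CPM in the Slc7a2 Dcstamp state.

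*Eno1* and *Fam162a* were on the control side in every state. *Eno1* was higher in the control library in 11 of 11 states, beyond counting error in each, from 0.41 log2 in the Gpnmb Mmp13 state (447 and 336 CPM) to 1.29 in the Retnla Lyz1 (Aldh1a2) state (518 and 209.6 CPM). *Fam162a* was higher in 11 of 11 and beyond counting error in 9, from 0.18 log2 in the Ly6c2 Vcan (Ifi205) state (53.7 and 46.9 CPM) to 1.08 in the Retnla Lyz1 (Il6) state (88.1 and 41.7 CPM). Among the 27 members measured in all 11 states these 2 were the only ones on the control side in each, and 0 were on the other side in each. Of all genes measured in every state, 9.29% lay on the control side in all 11, so the count of 2 is not above the background. *Eno1* was among 13 of 2152 genes with a smallest state ratio at least as large, 7 of which encode ribosomal proteins. For *Fam162a* there were 79 such genes. Both genes were named here for their ratios between these same libraries.

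*Eno1* was also higher in the control library in several groups of other lineages, but not in all. It stood at 43 and 85.8 CPM in B-like cells, from 5 and 6 UMIs. In an unnamed cluster led by *Crabp1* and *Phgdh* it was level, at 158 and 157 CPM. In migratory DC-like cells it stood at 144 and 10.6 CPM, from 55 and 3 UMIs (13.6-fold, 4.43 to 68.1). *Eno1* stood at 111 and 66.9 CPM in neutrophil-like cells (1.65-fold, 1.07 to 2.57), 116 and 53.7 CPM in T-like cells (2.16-fold, 1.39 to 3.42) and 96.4 and 51.4 CPM in the unnamed cluster led by *Sept3*, *Cd209a* and *Flt3* (1.88-fold, 1.45 to 2.44). *Fam162a* stood at 48.4 and 22.9, 65 and 39.4 and 45.3 and 34.6 CPM in the same groups, with intervals of the fold that excluded 1 only in neutrophil-like cells (1.03 to 4.5). Beside them, the enzymes before and after enolase had log2 ratios of -0.15 (*Pgam1*, -0.23 to -0.07) and -0.04 (*Pkm*, -0.10 to 0.04) in the Gpnmb Mmp13 state. Reads of *Eno1* can be shared with near-identical copies such as *Eno1b*, which held 27 and 19 UMIs in the pool.

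**Figure D5:**
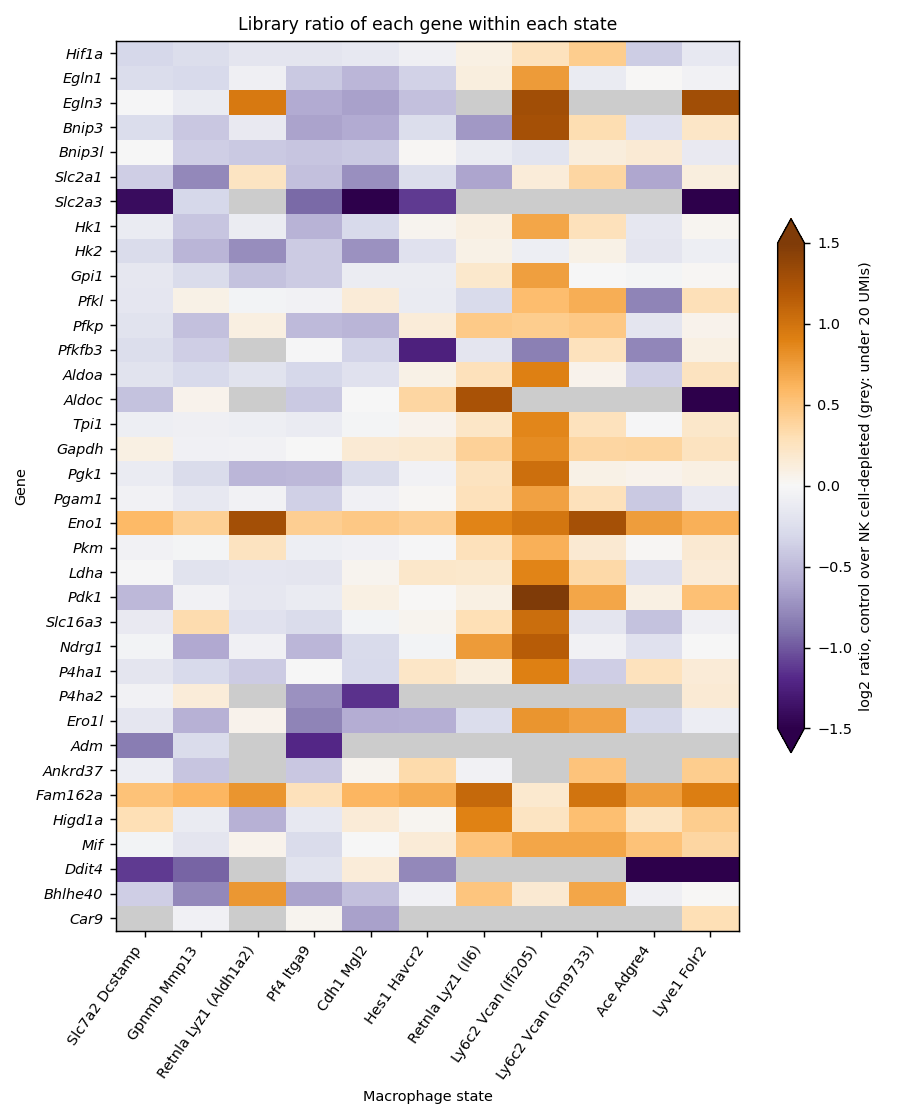
Log2 ratio of control over NK cell-depleted for each of the 36 genes (rows) within each of 11 macrophage states (columns); orange is higher in the control library, purple higher in the NK cell-depleted library, grey marks under 20 UMIs, and values past the ends of the scale take the end color. The rows of *Eno1* and *Fam162a* are orange in every state, the Pf4 Itga9 column is purple for most genes and the Ly6c2 Vcan (Ifi205) column orange for most.

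In cells of other types the differences varied by type. The median log2 ratio was 0.07 over 30 genes in neutrophil-like cells, with 4 past 1.5-fold higher (10.7% of all genes) and 0 lower (10.2%). It was 0.14 over 31 genes in T-like cells, with 3 higher (12.2%) and 3 lower (10.4%), and 0.21 over 33 genes in the unnamed cluster led by *Sept3*, *Cd209a* and *Flt3*, with 2 higher (7.86%) and 2 lower (7.69%). In migratory DC-like cells it was 0.81 over 25 genes, with 15 higher (12.2%) and 0 lower (16.2%). There *Gapdh* stood at 1305 and 583 CPM (2.24-fold, 1.87 to 2.69), *Ldha* at 344 and 127 CPM (2.71-fold, 1.86 to 4.03) and *Aldoa* at 465 and 194 CPM (2.39-fold, 1.76 to 3.3). These are sums over 69 and 51 cells, and monocyte/macrophage markers summed to 465 and 311 CPM in them. The median migratory DC-like cell gave 0.451% and 0.425% of its UMIs to the 36 genes, a smaller difference than that of the sums. The smaller cluster led by *Gm5483*, *Hcar2* and *Cxcl3* had a median of -0.43 over 25 genes, against -0.11 over all genes.

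Genes of the same pathways outside the 36 were read in the same way. Of 20 other HIF targets, 17 were measured in the pool, with a median log2 ratio of 0.37, 5 past 1.5-fold higher (8.62% of all genes) and 0 lower (4%). Their median was -0.06 at equal state weights, and 0.55 for the part given by the states' shares. *Hilpda*, a lipid droplet protein gene, stood at 250.5 and 142 CPM, and *Vegfa*, the vessel growth factor, at 193 and 149 CPM. In the Gpnmb Mmp13 state 12 of 15 measured genes of this list were at least 2-fold above the Lyve1 Folr2 state in the control library, where 11.5% of all genes were. In the NK cell-depleted library 12 were, against 12.5% of all genes. Of 20 other glycolysis and pyruvate genes, 17 were measured in the pool, with a median of 0.14 and 0 past 1.5-fold either way. In the Gpnmb Mmp13 state 7 and 5 of 17 were 2-fold above the Lyve1 Folr2 state, against 11.5% and 12.5% of all genes. Their median log2 ratios over the Lyve1 Folr2 state were 0.095 and 0.328, against -0.066 and -0.125 over all genes. The 8 measured HIF regulators had a pool median of -0.17 with 1 past 1.5-fold higher (8.62% of all genes). It was *Epas1*, from 22 and 14 UMIs, with an interval of the fold that included 1 (0.838 to 3.62). The 8 measured pentose phosphate and gluconeogenesis genes had a pool median of -0.03 with 0 past 1.5-fold higher.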

How the data were processed

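Leukocytes of 1 control and 1 NK cell-depleted library were measured. The authors deposited, per library, a matrix of UMI counts per gene and cell after cell calling. The file headers name Cell Ranger 3.0.2 (the study's methods name another release), and the submitters' processing notes name bcl2fastq and build mm10. A deposited table of normalized values was not used. Cells were filtered as the study states. The 36 genes and all other lists were chosen with earlier results of these data known. Interferon, member and pathway genes were left out of the 2000 variable genes, 15 principal components, 20 neighbors and Leiden clustering at resolution 1 (leidenalg 0.10.2). Cell names were rebuilt from marker lists: at least 3 markers at 25% of their highest cluster level, and fewer than 2 markers of another type, nor more of them than of its own, among the first 10 genes. A cluster far shallower than its library needed an own marker there too. All these limits were chosen once the clusters had been looked at, so names may differ from those of the study. Doublets were kept, and leaving out the cells with the highest Scrublet scores (scanpy 1.11.5) was an alternative.

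UMIs were summed per group and library. With 1 library per group no test was made. Each log2 ratio divides the control by the NK cell-depleted CPM, with 0.5 UMI added to both sums, for genes of at least 20 UMIs over both libraries, and states needed 50 cells in each. Intervals (exact Poisson, exact conditional, Clopper-Pearson, 95%) cover counting error only, and a count of 0 does not exclude a low level. Named were all genes past 1.5-fold in the pool or at equal state weights, those 2-fold above every other class or state in both libraries, those past 1.5-fold in one direction in most states, 7 paralog pairs and *Gapdh*. Genes that illustrate a role were added after their values were seen. Free RNA, from *S100a8* and *S100a9* in B-like and T-like cells, was 0.324% and 6.2% of UMIs, from 2 and 44 UMIs. Summed neutrophil markers did not differ this way everywhere. They stood at 14.3 and 115 CPM in T-like cells, 173 and 179 CPM in the pool, and 314 and 30.2 CPM in the *Sept3* cluster. Whether the estimate holds outside B-like and T-like cells was not tested. Scripts were checked on simulated data.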

Additional observations from a re-analysis of the deposited data

Results flagged for a closer look

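The sign of the difference between the libraries went opposite ways in 2 macrophage states. The median log2 ratio of control over NK cell-depleted over the 36 genes was -0.38 in the Pf4 Itga9 state and 0.73 in the Ly6c2 Vcan (Ifi205) state. With 1 library per group this difference was not tested. It kept both signs with free RNA subtracted (-0.41 and 0.84) and with cells of high doublet scores left out (-0.38 and 0.76).

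Cells above the upper limits of the filter were not part of the comparisons. Without those limits, 114 control and 250 NK cell-depleted cells formed a cluster led by *Cavin2*, *Hmga2*, *Serpinh1* and *Prkg2*, with *Ptprc*, the CD45 gene, at 4.81 CPM and median depths of 27709 and 27310.5 UMIs. The 36 genes summed to 5080.0 and 5178 CPM, with a median log2 ratio of -0.16 against -0.17 over all genes. *Eno1* was again higher in the control library, at 186 and 114 CPM (0.70 log2, 95% counting interval 0.56 to 0.84). *Fam162a* stood at 146 and 107 CPM (0.45 log2, 0.30 to 0.61). Parental melanoma cells were added to both samples, and these cells cannot be assigned to them or to the tumors here.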

How the results depend on the processing

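Of 78 recomputed values of the main results, 73 stayed within the main value's interval or within 1.5 times its count, 5 moved, and none of these 78, nor of 212 recomputed ratios of single genes, turned the sign of a value. The pooled median of 0.42 ranged from 0.33 to 0.46, the equal-weight median of -0.11 from -0.14 to -0.05 and the composition part from 0.49 to 0.60. With the Cdh1 Mgl2 and Slc7a2 Dcstamp clusters added to the pool, an alternative chosen after seeing the data like those on shallow clusters and on free RNA for the pool, the median was 0.33 and 3 genes were past 1.5-fold higher instead of 9. The count of lower genes went from 1 (*Slc2a3*) to 0 without upper limits on UMIs and genes, with every cell thinned to 2000 UMIs, and with free RNA subtracted. The number of states with a median above 0, 5 of 9, ranged from 4 to 7, the latter at resolution 2. The state medians of 2 states changed sign, Ace Adgre4 from -0.15 to 0.05 with free RNA subtracted and Hes1 Havcr2 from 0.01 to -0.19 with stricter limits on cells, to -0.02 without high doublet scores and to -0.01 with free RNA subtracted; the cause was not tested. *Adm* at equal weights was -0.04 log2 without the 5 cells richest in it, and *Slc2a3* -0.01 when thinned. Counting depth limits *Adm*, *Car9*, *Slc2a3* and the smallest clusters. No paired analysis was possible because each group was 1 library.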
